A study of Mus musculus with 36 samples.

Results

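Integrins are cell surface receptors made of 1 alpha and 1 beta subunit that hold cells to collagen, fibronectin, laminin, vitronectin and other matrix proteins, and that signal through talin, kindlin and focal adhesion kinase on the inner side of the membrane. In cartilage they link the chondrocyte to its pericellular matrix. The same tissue block can also carry integrins of platelets, leukocytes, osteoclasts and fibroblasts. The values below are for 10 integrin subunit genes in articular cartilage of the mouse knee. Osteoarthritis was induced by cutting the ligament that anchors the medial meniscus, an operation named destabilization of the medial meniscus (DMM). The genes were chosen by name, and the RNA of each was read from the count row of its RefSeq transcript with the highest mean count over 12 libraries. A count row was found for 9 of the 10 genes (of 23067 genes named in all), since the row of Itga10 was not identified from the sources used here and its RNA was not analysed here. CpG cytosines of all 10 genes and of 5 kb around them were taken from the reduced representation oxidative bisulfite sequencing (RRoxBS) data.

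All mice were C57BL/6J. The DMM samples were cartilage of the operated right knee, and the control samples were cartilage of the left knee without surgery, harvested 4 or 12 weeks later, so there was no sham surgery and limb side goes with treatment. Per the methods the mice were male and 12 weeks old at surgery, and the tissue of 3 knees was pooled into 1 library. RNA and DNA came from different mice. Per the study the left and right knees came from the same mice, but the labels do not say which pools share mice, so the main tests treat the limbs as independent. There were 3 control and 3 DMM libraries for each kind of data and time point. RNA totals ran from 27706547 to 62737656 counts, and the oxBS libraries covered 1463987 to 2186301 cytosines at a median of 22 to 102 reads. The 17 chondrocyte marker genes, such as aggrecan and type II collagen, summed to 17448 to 41279 CPM (counts scaled to a common library size) in control and 14713 to 22080 CPM in DMM libraries at 4 weeks, and to 11593 to 33716 against 23471 to 37971 CPM at 12 weeks. Markers of other tissues were detected too. The sums of platelet, osteoclast, endothelial, erythroid, neutrophil, Schwann cell and epithelial markers overlapped between limbs at both times. Those of the other lists differed at 1 or both times. Skeletal muscle markers summed to 6554 to 24333 CPM in control and 604 to 3912 CPM in DMM libraries at 4 weeks, and overlapped at 12 weeks, with 113 to 16952 against 647 to 12806 CPM. Fibroblast and synovium markers summed to 6673 to 15073 against 19051 to 25249 CPM at 4 weeks and to 7534 to 13230 against 13389 to 19346 CPM at 12 weeks. Osteoblast and osteocyte markers summed to 3964 to 6493 against 7573 to 8738 CPM at 4 weeks and to 2748 to 4246 against 5072 to 7036 CPM at 12 weeks. Their part in the values of the integrin subunits was not tested, and in pooled tissue fewer cells of a type and less RNA per cell cannot be told apart.

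The methylation data turn on a few sequences, printed 5′ to 3′ in the mouse build mm10 (GRCm38). Of the 10 genes, 8 have an entry in the RefSeq promoter table used here, and Itgb3 and Itgb4 do not. The first pair is shown because it holds the promoter that was partly methylated and a promoter that was not. Each runs from 250 bases before the transcription start to 29 bases after it on the strand of the gene, with every CpG in capitals. That of Itga2b lies at chr11:102469854-102470133 on the minus strand and holds 6 CpGs, and that of Itgav lies at chr2:83724147-83724426 on the plus strand and holds 23.
Itga2b promoter: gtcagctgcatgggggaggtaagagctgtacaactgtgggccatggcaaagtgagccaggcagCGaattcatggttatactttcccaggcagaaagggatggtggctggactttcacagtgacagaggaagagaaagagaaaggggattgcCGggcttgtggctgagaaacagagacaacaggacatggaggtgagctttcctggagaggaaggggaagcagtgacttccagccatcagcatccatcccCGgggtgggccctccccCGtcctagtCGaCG
Itgav promoter: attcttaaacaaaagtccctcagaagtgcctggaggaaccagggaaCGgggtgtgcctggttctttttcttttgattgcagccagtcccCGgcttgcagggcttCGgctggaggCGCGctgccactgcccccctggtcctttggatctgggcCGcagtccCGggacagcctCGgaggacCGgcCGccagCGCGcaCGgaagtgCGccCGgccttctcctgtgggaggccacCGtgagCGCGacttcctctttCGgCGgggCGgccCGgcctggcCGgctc
The next 4 are shown because they hold the cytosines with called or large differences between limbs. Each is 41 bases long on the strand that was read, with the measured CpG in capitals. They lie in a coding exon of Itga2b (chr11:102466317-102466357, minus strand) and in introns of Itga11 (chr9:62732196-62732236, plus strand), Itgb4 (chr11:116000480-116000520, plus strand) and Itgb3 (chr11:104628060-104628100, minus strand).
Itga2b cytosine: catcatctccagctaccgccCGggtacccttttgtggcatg
Itga11 cytosine: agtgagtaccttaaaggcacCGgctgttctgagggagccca
Itgb4 cytosine: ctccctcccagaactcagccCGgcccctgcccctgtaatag
Itgb3 cytosine: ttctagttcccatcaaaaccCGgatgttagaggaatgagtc
The RRoxBS method cuts DNA at CCGG with MspI, so it reads CpGs near such sites. The letters CCGG stood in 52.8% of 32851 RefSeq promoters of 300 bases. They stood 2 times in the 300 bases of Itga2b and 7 times in those of Itgav.

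Levels of different genes were compared as CPM per kilobase of transcript. Itgb1 (chr8:128685654-128733579), the beta subunit shared by the collagen and fibronectin receptors, was the highest of the 9 subunits in all 4 groups, at 95.01 ± 12.3 CPM per kb (SD, n = 3) in control cartilage at 4 weeks and 70.8 ± 6.27 at 12 weeks. Itgb4, which pairs with Itga6 in the laminin receptor of epithelial hemidesmosomes, was the lowest in all 4 groups, at 0.495 ± 0.302 and 0.417 ± 0.0793 CPM per kb. In control cartilage at 4 weeks the order ran Itgb1, Itgb5, Itga2b, Itga5, Itgb3, Itgav, Itga11, Itga1 and Itgb4. Neighbours in that order overlapped from Itgb1 down to Itgb3, and again for Itgav and Itga11. At 12 weeks Itga2b stood second at 50.2 ± 8.63 CPM per kb, below Itgb1 and above Itgb3 without overlap, and Itgb5 stood below Itga5 at 11.5 ± 2.60. Itgb3 and Itga5 were neighbours that overlapped there, at 22.1 ± 10.4 and 21.1 ± 4.51 CPM per kb, as were Itga11 and Itgav at 4.38 ± 1.28 and 4.18 ± 0.552.

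The comparison of limbs asked which genes differ between injured and uninjured cartilage at an early and a later stage of disease. By edgeR's quasi-likelihood test none of the 9 subunits passed a Benjamini-Hochberg adjusted p of 0.05 at either time, with adjusted p of 0.252 to 0.920 at 4 weeks and 0.211 to 0.921 at 12 weeks. Of all transcripts tested, 0.0757% passed at 4 weeks and 0.00476% at 12 weeks. An unadjusted p under 0.05 was reached by 2 of the 9 at each time (Itgb1 and Itgb3 at 4 weeks, Itgb3 and Itgb5 at 12 weeks), where 13.7% and 16.3% of all transcripts did. The limbs did not overlap for 3 of the 9 at 4 weeks and 2 of the 9 at 12 weeks, against 21.2% and 18.8% of all transcripts. DESeq2 called 1 of the 9 at each time, Itgb3 at 4 weeks and Itgb5 at 12 weeks, where it called 3.44% and 4.02% of transcripts with an adjusted p. The median log2 fold change of the 9 subunits was 0.14 at 4 weeks and 0.19 at 12 weeks, and that of all transcripts was -0.03 and 0.01.

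**Figure D1:**
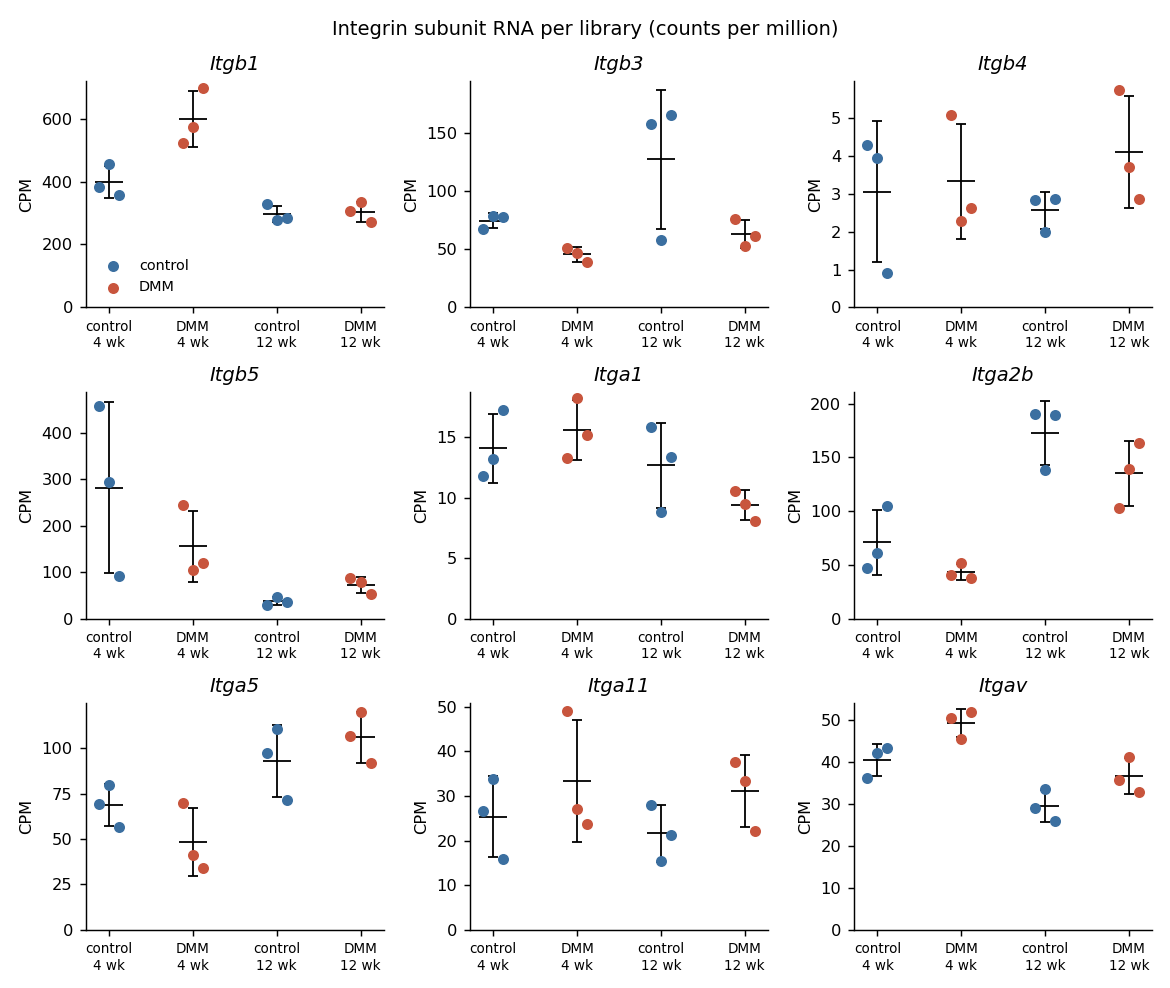
RNA level of 9 integrin subunits in CPM (vertical axes, from 0) by limb and week, with 1 point per library and the mean ± SD of 3 libraries as bars. The DMM libraries of Itgb3 at 4 weeks lie below all control libraries, and those of Itgb5 at 12 weeks lie above them.

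Among the beta subunits, Itgb3 (chr11:104608000-104670476, plus strand) had the smallest unadjusted p at 4 weeks. It pairs with Itga2b in the fibrinogen receptor of platelets and with Itgav in the vitronectin receptor, which osteoclasts use to attach to bone. At 4 weeks its level was 67.7, 78.5 and 78.2 CPM in the control libraries and 51.6, 47.1 and 38.9 CPM in the DMM libraries. All DMM libraries lay below all control libraries. The log2 fold change was -0.71 (SE 0.19, edgeR adjusted p = 0.252), which did not pass, whereas DESeq2 gave an adjusted p of 0.0353. At 12 weeks Itgb3 stood at 158, 58.5 and 166 CPM in control and at 75.8, 52.5 and 61.5 CPM in DMM cartilage. Control replicate 2 was at the level of the DMM libraries, so the limbs overlapped. The log2 fold change was -1.003 (SE 0.38, edgeR adjusted p = 0.282, DESeq2 adjusted p = 0.0793). Without control replicate 2 it was -1.38 (SE 0.18, edgeR adjusted p = 0.0324), and edgeR then called 860 transcripts in place of 1. Leaving out each of the other 5 libraries gave edgeR adjusted p of 0.304 to 0.713.

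Itgb5 (chr16:33829665-33949338, plus strand), which pairs with Itgav in another vitronectin receptor, had the widest range of the 9 subunits over the 12 libraries, from 29.98 to 459 CPM, a 15.3-fold span. At 4 weeks it stood at 459, 295 and 91.2 CPM in control and at 244, 104 and 121 CPM in DMM cartilage, so the limbs overlapped. The log2 fold change was -0.84 (SE 0.56, edgeR adjusted p = 0.474), and was -0.31 without control replicate 1, -1.28 without control replicate 3 and -1.34 without DMM replicate 1. At 12 weeks it stood at 29.98, 46.9 and 36.3 CPM in control and at 86.6, 79.3 and 53.7 CPM in DMM cartilage. Every DMM library was then above every control library. The log2 fold change of 0.97 (SE 0.23) had an edgeR adjusted p of 0.211 and a DESeq2 adjusted p of 0.00916. Without control replicate 2 it was 1.12 with an edgeR adjusted p of 0.0430, and leaving out each of the other 5 libraries gave adjusted p of 0.0672 to 0.678. Across the 12 libraries its level was opposite to that of neutrophil markers, with a Pearson r of -0.96 with their sum and of -0.94 for deviations from the group means. It was also opposite to the sums of platelet (r = -0.85 and -0.91), osteoclast (-0.73 and -0.92) and erythroid markers (-0.52 and -0.92). The 10 neutrophil markers summed to 9406 to 27249 CPM in control and 13803 to 20671 CPM in DMM libraries at 4 weeks, and to 26500 to 44363 and 21490 to 34547 CPM at 12 weeks. Their log2 fold changes were below 0 for 5 at 4 weeks and 10 at 12 weeks (median -0.0041 and -0.48). Those of 8 erythroid markers were below 0 for 5 and 8 (median -0.13 and -0.35). Of 13 platelet markers 9 and 11 were below 0, and of 12 osteoclast markers 8 and 7. The median of all transcripts was -0.03 and 0.01. With the sum of the chondrocyte markers Itgb5 had an r of 0.40 (0.69 for deviations). Of these 17 genes edgeR called none at either time and DESeq2 called 1 lower at 4 weeks and 1 higher at 12 weeks, beside 0.0757% and 0.00476% of all transcripts for edgeR and 3.44% and 4.02% for DESeq2. Log2 fold changes were below 0 for 14 at 4 weeks (median -0.80, 7 with an unadjusted p under 0.05) and above 0 for all 17 at 12 weeks (median 0.51, 2 with such a p), where 13.7% and 16.3% of all transcripts had such a p. The r of Itgb5 was 0.56 (0.62 for deviations) with osteoblast and osteocyte markers and 0.49 (0.39) with skeletal muscle markers. With fibroblast and synovium markers it was 0.28 (0.53), and with Schwann cell markers 0.12 (0.69). Endothelial markers gave 0.21 (-0.52) and epithelial markers -0.18 (0.43). The part of these cell types in the Itgb5 values was not tested. A second transcript row of Itgb5 had a mean count of 5849.67, beside 5849.92 for the row used.

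Itgb1 stood at 382, 456 and 357 CPM in control and at 523, 573 and 698 CPM in DMM cartilage at 4 weeks. All DMM libraries were higher, but the log2 fold change of 0.58 (SE 0.23) had an edgeR adjusted p of 0.353. At 12 weeks the limbs overlapped, at 327, 279 and 285 CPM against 305, 335 and 271 CPM, with a log2 fold change of 0.04 (SE 0.15, edgeR adjusted p = 0.921). With fibroblast and synovium markers, whose sums were higher in DMM libraries, Itgb1 had an r of 0.61 (0.74 for deviations from the group means). Values were 0.68 (0.17) with endothelial, 0.67 (0.14) with osteoblast and osteocyte and -0.64 (-0.22) with Schwann cell markers. The part of these cell types in the Itgb1 values was not tested. Itgb4 (chr11:115974725-116008412, plus strand) had 49 to 272 counts per library. It stood at 4.29, 3.95 and 0.912 CPM in control and 5.07, 2.29 and 2.62 CPM in DMM libraries at 4 weeks. The 12-week levels were 2.84, 2.003 and 2.85 CPM in control against 5.73, 3.71 and 2.87 CPM, and the limbs did not overlap, with the closest DMM and control libraries at 2.87 and 2.85 CPM. The log2 fold changes of Itgb4 were 0.14 (SE 0.57, edgeR adjusted p = 0.920) and 0.69 (SE 0.32, edgeR adjusted p = 0.319). The 6 epithelial marker genes summed to 15.5 to 28.2 CPM over all libraries, 1 of them with at most 3 counts in any library. Their r with Itgb4 was 0.48 (0.37 for deviations from the group means). Fibroblast and synovium markers gave 0.51 (0.51) and Schwann cell markers 0.25 (0.45). Values were -0.87 (-0.88) with erythroid, -0.68 (-0.86) with platelet and -0.69 (-0.78) with osteoclast markers. The part of these cell types in the Itgb4 values was not tested.

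Itga2b (chr11:102453297-102469883, minus strand) is the alpha subunit of the platelet receptor and is made by megakaryocytes and their precursors. It stood at 46.9, 61.0 and 105 CPM in control and 41.0, 51.5 and 37.7 CPM in DMM cartilage at 4 weeks. The 12-week libraries were at 190, 138 and 190 CPM in control and 103, 139 and 163 CPM in DMM cartilage. The limbs overlapped at both times, with log2 fold changes of -0.72 (SE 0.31, edgeR adjusted p = 0.366) and -0.35 (SE 0.20, edgeR adjusted p = 0.402). Without control replicate 3 the 4-week value was -0.32. The sums of 13 platelet and megakaryocyte markers overlapped between limbs, at 553 to 1116 against 471 to 1027 CPM at 4 weeks and 978 to 1207 against 704 to 1153 CPM at 12 weeks. Over 12 libraries Itga2b followed the neutrophil markers (r = 0.84, and 0.89 for deviations from the group means) and the platelet markers (r = 0.68 and 0.72). The values were 0.48 and 0.76 with osteoclast and 0.28 and 0.73 with erythroid markers. These points share library, depth and tissue make-up.

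Itgav (chr2:83722303-83806917, plus strand) is the alpha subunit of several vitronectin and fibronectin receptors, some of which activate latent TGF-beta. Its level was 36.2, 42.1 and 43.4 CPM in control and 50.5, 45.5 and 51.9 CPM in DMM cartilage at 4 weeks. All DMM libraries were higher there, whereas at 12 weeks 28.99, 33.6 and 25.9 CPM in control overlapped with 35.8, 41.3 and 32.8 CPM in DMM cartilage. The log2 fold changes were small, at 0.28 (SE 0.17, edgeR adjusted p = 0.447) and 0.32 (SE 0.15, edgeR adjusted p = 0.321). Itga5 (chr15:103344286-103366791, minus strand) forms the classical fibronectin receptor with Itgb1. It was at 69.5, 79.8 and 56.5 against 69.7, 41.0 and 34.1 CPM at 4 weeks and at 97.6, 110 and 71.3 against 107, 120 and 91.7 CPM at 12 weeks. Both pairs of limbs overlapped, with log2 fold changes of -0.50 (SE 0.29, edgeR adjusted p = 0.431) and 0.19 (SE 0.18, edgeR adjusted p = 0.596). With 1 library left out they ran from -0.88 (without DMM replicate 1) to -0.30 (without DMM replicate 3) and, leaving out control replicate 3 or 2, from 0.0194 to 0.30.

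Itga1, Itga10 and Itga11 each pair with Itgb1 to bind collagens. Itga1 (chr13:114958079-115101964, minus strand) stood at 11.8, 13.2 and 17.3 against 13.3, 18.2 and 15.2 CPM at 4 weeks. At 12 weeks it stood at 15.8, 8.84 and 13.3 against 10.6, 9.49 and 8.10 CPM, again with overlap. Its log2 fold changes were 0.14 (SE 0.23, edgeR adjusted p = 0.782) and -0.42 (SE 0.24, edgeR adjusted p = 0.388). Across libraries Itga1 followed the endothelial markers, with r = 0.94 over 12 libraries and 0.90 for deviations from the group means. The values were -0.70 and -0.77 with chondrocyte and -0.65 and -0.68 with Schwann cell markers. These points share library, depth and tissue make-up, and the part of these cell types was not tested. Itga11 (chr9:62677855-62783979, plus strand), known from fibroblasts, stood at 26.7, 33.8 and 15.8 against 49.1, 27.2 and 23.7 CPM at 4 weeks. At 12 weeks it was at 28.0, 15.4 and 21.4 against 37.7, 33.4 and 22.2 CPM. The limbs overlapped at both times, with log2 fold changes of 0.40 (SE 0.36, edgeR adjusted p = 0.588) and 0.53 (SE 0.27, edgeR adjusted p = 0.347). Without DMM replicate 1 the 4-week value was -0.01.

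**Figure D2:**
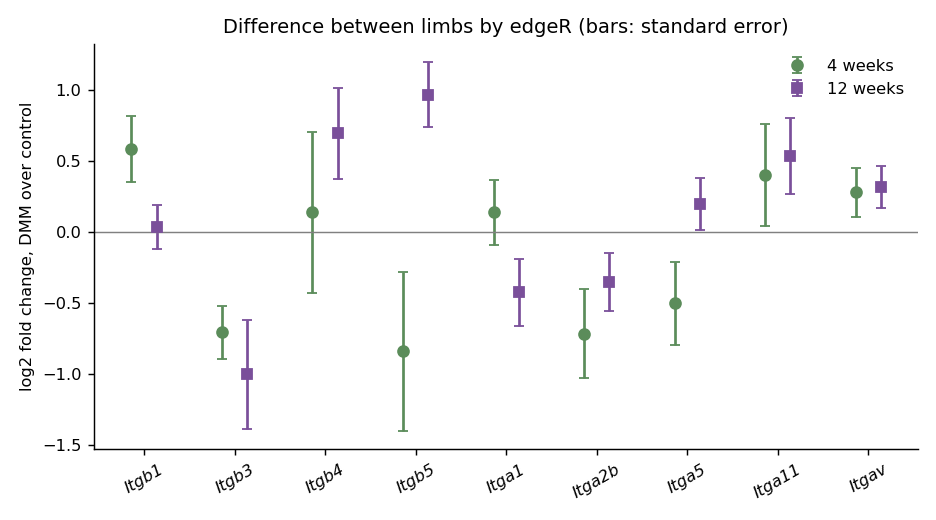
Log2 fold change of DMM over control (vertical axis) for 9 subunits at 4 weeks (circles) and 12 weeks (squares), with the edgeR standard error as bars. Itgb5 lies at -0.84 at 4 weeks and 0.97 at 12 weeks, and Itgb3 lies below 0 at both.

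The test of whether the limb difference changed between 4 and 12 weeks called 0.0% of 21618 transcripts by edgeR (12.3% had an unadjusted p under 0.05, and DESeq2 called 16 transcripts). Itgb5 had the largest value among the subunits, with a log2 fold change that was 1.81 higher at 12 than at 4 weeks (SE 0.68, edgeR adjusted p = 0.405). By size Itga5 followed with 0.69 (SE 0.37, edgeR adjusted p = 0.427), then Itga1 with -0.58 (SE 0.33, edgeR adjusted p = 0.452), Itgb4 with 0.56 (SE 0.71, edgeR adjusted p = 0.706) and Itgb1 with -0.55 (SE 0.26, edgeR adjusted p = 0.407). The other 4 had edgeR adjusted p of 0.668 to 0.955. With 1 library left out the value of Itgb4 ran from 0.23 (control replicate 1 of 4 weeks) to 0.99 (DMM replicate 1 of 4 weeks). That of Itga5 reached 1.06 without DMM replicate 1 of 4 weeks, and that of Itga1 was -0.38 without control replicate 1 of 12 weeks.

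Itgb3 was then set against its 2 alpha partners within each library, which removes the library scale. At 4 weeks the ratio of Itgb3 to Itgav counts was 1.87, 1.87 and 1.80 in control and 1.02, 1.04 and 0.749 in DMM libraries. The SD of the control ratios was 0.03 on the log2 scale, and all DMM ratios lay below them. The mean log2 ratio differed by -0.996 (exact permutation p = 0.1, two-sided, the smallest that 3 against 3 libraries allow). At 12 weeks the ratios were 5.46, 1.74 and 6.41 in control and 2.12, 1.27 and 1.88 in DMM libraries, with overlap (difference -1.20, exact permutation p = 0.3). The overlap came from control replicate 2, without which the difference was -1.79.

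The ratio of Itgb3 to Itga2b was 1.44, 1.29 and 0.747 in control and 1.26, 0.915 and 1.03 in DMM libraries at 4 weeks (difference of mean log2 ratios -0.08, exact permutation p = 0.8). At 12 weeks it was 0.833, 0.423 and 0.876 against 0.736, 0.377 and 0.377 (difference -0.52, exact permutation p = 0.2). The limbs overlapped at both times, but at 12 weeks they did not overlap without control replicate 2 (difference -0.86) or without DMM replicate 1 (-0.84), while leaving out control replicate 3 gave -0.33. At 4 weeks the direction turned when control replicate 1, control replicate 2 or DMM replicate 2 was left out, to 0.11, 0.03 and 0.03. The 3 subunits share libraries, so these ratios are not independent of the single fold changes.

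**Figure D3:**
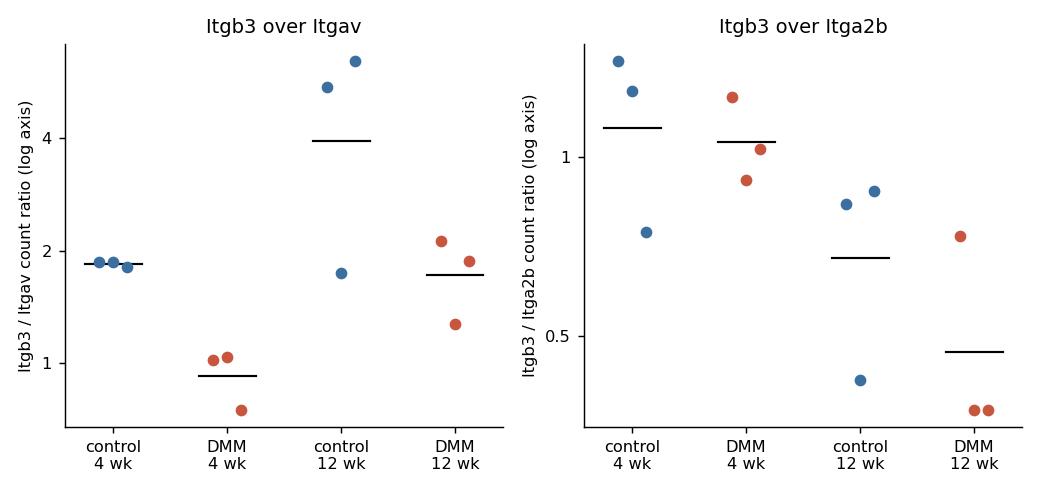
Ratio of Itgb3 counts to Itgav counts (left) and to Itga2b counts (right) on log axes, with 1 point per library and the geometric mean of 3 libraries as a line. The 4-week Itgav ratios lie between 1.80 and 1.87 in control and between 0.749 and 1.04 in DMM libraries.

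Over the 12 libraries Itgb3 had its highest correlation among the subunits with Itga2b (Pearson r of log2 CPM 0.65, Spearman rho 0.63) and its lowest with Itgav (r = -0.81, rho = -0.69). Leaving out control replicates 1 and 3 of 12 weeks, where Itgb3 was highest, gave 0.38 and -0.54, and Itga5 then stood above Itga2b with 0.49 and Itgb1 below Itgav with -0.60. For deviations from the group means the r with Itga2b was 0.33, below those with Itga1 (0.70) and Itga11 (0.48), so the first place of Itga2b was lost in both. Itga2b ranked 1333 in likeness to Itgb3 among 15941 genes compared. The most like it were Tmem164 (r = 0.95), Zfp516 (0.94), Cep85 (0.94), Usp38 (0.93) and Pnpla1 (0.92), with r of 0.91, 0.83, 0.86, 0.80 and 0.68 without the same 2 libraries. With summed marker levels, Itgb3 had an r of 0.33 for platelets (0.02 for deviations from the group means), 0.30 for osteoclasts (0.23) and 0.56 for neutrophils (0.37). It was -0.84 for osteoblasts and osteocytes (-0.49) and -0.67 for fibroblasts and synovium (-0.33), the lists whose sums were higher in DMM libraries. It was 0.02 for endothelium (0.71) and -0.29 for chondrocytes (-0.69). The part of these cell types in the Itgb3 values was not tested. Among the other subunits, Itgav and Itgb1 were each other's most alike (r = 0.83, and 0.30 for deviations from the group means). Itga11 and Itgb4 were likewise (r = 0.85 and 0.87), and so were Itga2b and Itga5 (r = 0.67), where the value for deviations turned to -0.37. The points share library, depth and tissue make-up, so these values are descriptions.

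None of 16 other integrin subunits was called by edgeR at either time. At 4 weeks 1 had an unadjusted p under 0.05 with a higher and 1 with a lower level in DMM cartilage, and at 12 weeks 1 and 3, beside 13.7% and 16.3% of all transcripts. DESeq2 called 1 lower at 4 weeks and 3 lower at 12 weeks, beside 3.44% and 4.02%. At 4 weeks Itgb6, an epithelial partner of Itgav, ranged from 1.10 to 3.61 CPM in control and 0.244 to 0.641 CPM in DMM libraries (log2 fold change -2.36, SE 0.61, edgeR adjusted p = 0.252). Itga8 and Itga7, the latter a laminin receptor subunit of muscle, followed with 0.69 (SE 0.29) and -1.09 (SE 0.48). At 12 weeks Itgal, the alpha subunit of the leukocyte receptor LFA-1, ranged from 44.3 to 92.7 CPM in control and 27.6 to 40.6 CPM in DMM libraries (log2 fold change -1.07, SE 0.29, edgeR adjusted p = 0.219). Itga4 ranged from 25.6 to 31.6 against 12.4 to 21.2 CPM (-0.72, SE 0.21, edgeR adjusted p = 0.236). Itgam, of neutrophils and macrophages, ranged from 156 to 360 against 103 to 159 CPM (-1.04, SE 0.33, edgeR adjusted p = 0.246). The median log2 fold change of the 16 was -0.17 at 4 weeks and -0.37 at 12 weeks. That of the 10 neutrophil markers was -0.0041 and -0.48. The part of such cells in the values of these subunits was not tested.

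Genes of the adhesion complex that binds integrin tails gave no edgeR call among 26 tested of 27. Unadjusted p under 0.05 was reached by 3 higher and 1 lower at 4 weeks and by 6 higher and 1 lower at 12 weeks, beside 13.7% and 16.3% of all transcripts. DESeq2 called 0 and 2, beside 3.44% and 4.02%. Paxillin (Pxn), a scaffold of focal adhesions, ranged from 47.3 to 71.3 CPM in control and 29.2 to 43.5 CPM in DMM libraries at 4 weeks (log2 fold change -0.71, SE 0.24, edgeR adjusted p = 0.310). The tetraspanin Cd151 ranged from 33.7 to 47.6 against 49.7 to 73.5 CPM at 4 weeks and from 8.91 to 11.8 against 12.6 to 22.8 CPM at 12 weeks. Its log2 fold changes were 0.60 (SE 0.23, edgeR adjusted p = 0.339) and 0.91 (SE 0.25, edgeR adjusted p = 0.215). Itgb1bp1 at 4 weeks (0.49, SE 0.20), tensin 1 (Tns1) at 12 weeks (0.70, SE 0.20) and talin 2 (Tln2) at 12 weeks (0.87, SE 0.26) completed the 3 smallest p of each time.

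Integrin ligands gave no edgeR call among 30 tested of 33. Unadjusted p under 0.05 was reached by 5 higher and 5 lower at 4 weeks (13.7% of all transcripts did) and by 13 higher and 2 lower at 12 weeks (16.3% of all). DESeq2 called 3 higher and 1 lower at 4 weeks (3.44% of all) and 6 higher at 12 weeks (4.02% of all). Periostin (Postn) ranged from 46.1 to 141 CPM in control and from 217 to 458 CPM in DMM libraries at 4 weeks (log2 fold change 1.96, SE 0.44, edgeR adjusted p = 0.236, DESeq2 adjusted p = 0.000758). Edil3, a ligand of Itgav receptors, followed with 0.85 (SE 0.21) and the laminin chain Lamb3 with -1.66 (SE 0.52). At 12 weeks Col3a1, a collagen of fibroblasts, ranged from 268 to 500 CPM in control and 874 to 2105 CPM in DMM libraries (2.29, SE 0.41, edgeR adjusted p = 0.122). Fibronectin (Fn1), the ligand of the Itga5 receptor, ranged from 1236 to 1464 against 1993 to 3056 CPM (0.98, SE 0.22, edgeR adjusted p = 0.195). Bone sialoprotein (Ibsp), a ligand of Itgb3 receptors, ranged from 1069 to 1678 against 2191 to 3497 CPM (1.06, SE 0.25, edgeR adjusted p = 0.211). Of these, Col3a1 is also among the fibroblast markers and Ibsp among the osteoblast markers whose sums were higher in DMM libraries.

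DNA methylation at the subunits was read from oxBS libraries, in which the remaining C reports 5-methylcytosine (5mC). Covered in all 6 libraries of a week were 1123 cytosines of the 10 genes and their surroundings at 4 weeks and 1024 at 12 weeks. Of these 109 and 104 also lay within another gene. A cytosine was called when the pooled reads of the limbs differed by at least 25 percentage points with a q under 0.05. None of 1123 was called at 4 weeks, where 0.000554% of all cytosines were, and 3 of 1024 at 12 weeks, where 0.227% of all cytosines were. An unadjusted p under 0.05 was reached by 89 cytosines (7.93%) at 4 weeks and 118 (11.5%) at 12 weeks, beside 8.02% and 9.43% of all cytosines. The limbs did not overlap at 72 (6.41%) and 87 (8.50%), beside 6.14% and 8.11%. The difference was below 0 at 49.9% and 47.8%, beside 48.9% and 46.1%. Of the 118 cytosines with an unadjusted p under 0.05 at 12 weeks, 94 (79.7%) were lower and 24 higher in DMM cartilage, beside 75.3% lower among all cytosines with such a p. At 4 weeks 52 of 89 (58.4%) were lower, beside 57.4%. Of the 118, 95 lay in gene bodies, which held 603 of the 1024 cytosines tested. In control, 325 of the 332 promoter cytosines and 215 of the 603 body cytosines were under 20% at 12 weeks. No share was computed over gene-body cytosines of all genes, so no excess in gene bodies can be read from this. The test of single cytosines treats the reads of a limb as 1 pool and ignores the spread among its libraries.

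All 3 called cytosines were lower in DMM cartilage at 12 weeks, as were 2548 of the 2892 called over all cytosines. The limbs did not overlap at any of the 3. That in the coding exon of Itga2b was at 43.1, 35.9 and 41.5% in control and 13.0, 14.7 and 20.4% in DMM libraries (difference -25.4 points, q = 0.000318), at 34 to 108 reads. At 4 weeks the same Itga2b cytosine was at 40.0, 10.7 and 36.5% against 19.1, 3.70 and 9.30%, with overlap (q = 0.586). That in the intron of Itga11 was at 77.4, 93.3 and 94.4% against 69.7, 38.5 and 31.6% at 12 weeks (difference -33.6 points, q = 0.00748), at 13 to 33 reads. At 4 weeks it was at 74.2, 58.7 and 75.0% against 58.1, 50 and 41.9%, without overlap (difference -14.0 points, q = 0.586). That in the intron of Itgb4 was at 59.4, 66.7 and 82.4% against 28.1, 27.3 and 57.1% at 12 weeks (difference -31.2 points, q = 0.0314), at 12 to 32 reads. At 4 weeks the Itgb4 cytosine was at 57.1, 37.5 and 35.3% against 53.1, 52.9 and 37.9%, with overlap and in the other direction (difference 5.85 points, q = 0.835). With a correction for overdispersion, which does count the spread among libraries, each of the 3 had q = 0.907. No cytosine of the genome was called then. With 1 library left out, Itga2b had no call without control replicate 1 or DMM replicate 1. Itga11 had none without control replicate 3 or DMM replicate 3, and Itgb4 had a call only without control replicate 1 or DMM replicate 3. Some of these fits called cytosines at other subunits.

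At 4 weeks, where none was called, the largest difference with an unadjusted p under 0.05 was in the intron of Itgb3 shown above. It was at 50, 28.4 and 63.6% in control and 18.8, 0.0 and 13.9% in DMM libraries, without overlap (difference -22.8 points, q = 0.253). The reads ran from 10 to 67, with 10 for the 0.0% and 11 for the 63.6%. A coding exon cytosine of Itga5 (chr15:103357555-103357555) followed with -21.1 points (q = 0.475, limbs overlapping). A second intron cytosine of Itga11 (chr9:62732263-62732263), close to the one called at 12 weeks, followed with -19.5 points (q = 0.380, no overlap). Leaving out control replicate 2 at 4 weeks, the most deeply covered oxBS library, raised the calls from 8 to 3039 of 1444973 cytosines. Of these 2611 were lower in DMM cartilage. Calls at the 10 genes rose from 0 to 4, 1 each at Itga2b, Itga5, Itga11 and Itgb3, all lower in DMM cartilage.

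Promoters, taken as 1000 bases before to 500 bases after the transcription start, were nearly free of 5mC at 8 of the 9 subunits with covered cytosines there, with means of 0.0 to 4.16% in every library. No promoter cytosine of Itga10 was covered in all libraries. The exception was the promoter of Itga2b, where the mean over 9 cytosines was 40.6, 48.5 and 44.7% in control and 39.5, 50.2 and 48.6% in DMM libraries at 4 weeks. At 12 weeks it was 38.1, 41.8 and 33.7% against 49.3, 45.5 and 44.7%, and all DMM libraries were higher (difference 8.67 points, exact permutation p = 0.1, the smallest possible). A promoter mean without overlap in that direction was found for 4.45% of genes with at least 4 covered promoter cytosines. Over pooled reads, 7 of the 9 cytosines were higher in DMM cartilage at 12 weeks. Of these, 6 had an unadjusted p under 0.05 and 4 did not overlap, beside 9.43% and 8.11% of all cytosines in either direction. Those shares, and the 4.45% of genes, cover cytosines at any 5mC level, many of them nearly free of 5mC. The 9 cytosines here were partly methylated, so the rates are not fully alike. The 9 are not independent. Those at 28, 25 and 16 bases after the start and 1 base before it lie on the same strand, with 69 reads each in control replicate 1. The cytosine at the start and that 1 base before it are the strands of the same CpG. The smallest q was 0.0459, at a cytosine 16 bases after the start, which was at 27.5, 40.5 and 25.5% in control and 55.2, 50 and 38.2% in DMM libraries, with overlap. At 4 weeks 4 of the 9 were higher and none had an unadjusted p under 0.05. The RNA of Itga2b, from other mice, had a log2 fold change of -0.35 at 12 weeks that did not pass the test.

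**Figure D4:**
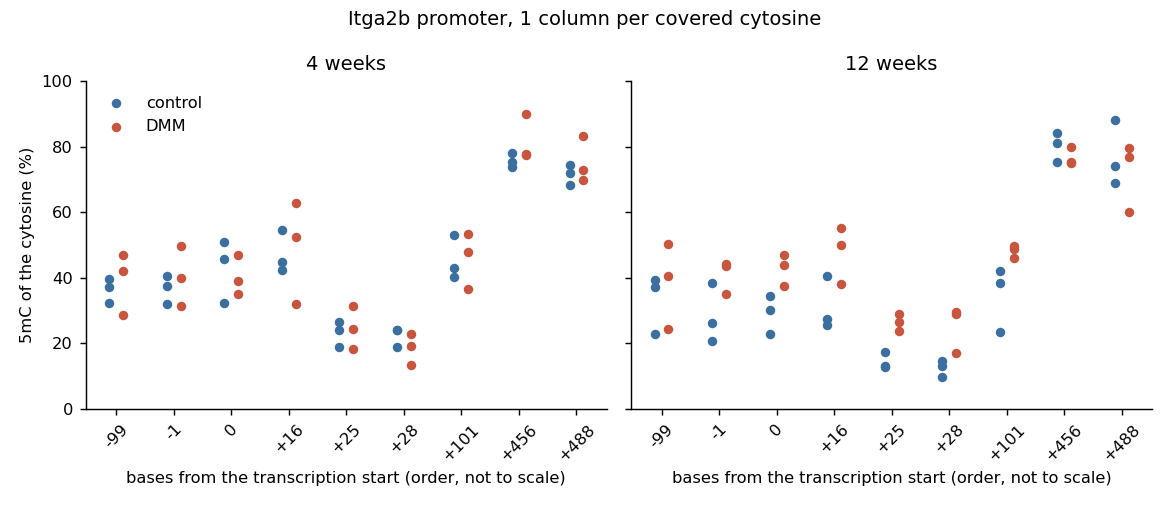
5mC in percent (vertical axes) at the 9 covered cytosines of the Itga2b promoter, ordered by distance from the transcription start in bases (horizontal axes, not to scale), with 1 point per library. At 12 weeks the pooled DMM level was higher at 7 of 9 cytosines. The points of the limbs do not overlap at 4 of them, beside 8.11% of all cytosines, whatever their 5mC level.

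Gene bodies were methylated to very different degrees, from 8.93% at Itgb1 to 75.7% at Itgav in single libraries at 4 weeks. Their means over 14 to 147 cytosines were lower in DMM cartilage at 10 of 10 subunits at both times, by 0.782 to 3.69 points at 4 weeks and 0.901 to 4.77 points at 12 weeks, where 72.9% and 73.2% of genes had a lower mean. At a coverage minimum of 20 reads they were lower at 10 and 8 of the 10. The largest 12-week difference, that of Itgav, then went from -4.77 to -2.21 points. With 1 library left out, the largest 4-week difference, that of Itgav, ran from -4.92 to -1.55 points. The smallest, that of Itga1, ran from -1.11 to -0.375 points. Over all cytosines of the genome the mean was also lower, by 0.696 points at 4 weeks (27.5 ± 0.799 against 26.8 ± 0.397%, SD, n = 3) and by 0.917 points at 12 weeks (30.005 ± 0.307 against 29.1 ± 0.371%). At 4 weeks the limbs did not overlap at 1 of 10, Itgb3, at 66.2, 62.5 and 63.9% against 61.9, 60.6 and 61.2% (difference -2.99 points, exact permutation p = 0.1). With 1 library left out this difference ran from -3.86 to -1.98 points. DMM bodies lay below control without overlap at 6.23% of genes. At 12 weeks they did so at 5 of 10 (Itga2b, Itga5, Itga10, Itgb1 and Itgb4), beside 25.3% of genes. These shares are over genes with at least 4 covered body cytosines, whereas the subunits had 14 to 147, so the rates are not fully alike.

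In the body of Itgb1 the 12-week means over 14 cytosines were 18.9, 19.6 and 19.1% in control and 14.4, 14.3 and 14.9% in DMM libraries (difference -4.71 points, and -2.54 points over the 12 cytosines covered by at least 20 reads). In the body of Itga2b they were 34.0, 33.0 and 34.2% against 28.6, 28.9 and 30.7% over 84 cytosines (difference -4.39 points). In the body of Itgb4 they were 43.5, 43.8 and 43.6% against 41.3, 41.3 and 40.6% over 138 cytosines (difference -2.59 points). In the body of Itga10 (chr3:96645584-96664519, plus strand), a collagen receptor subunit typical of chondrocytes, they were 57.2, 59.7 and 59.7% against 56.5, 57.1 and 56.4% over 32 cytosines (difference -2.22 points, and -0.725 points over the 22 with at least 20 reads). Each of these had the smallest exact permutation p of 0.1. The body of Itga5 differed by -0.901 points over 31 cytosines, and by 0.188 points in the other direction over the 16 covered by at least 20 reads. Itgb5 and Itgb3, whose RNA had the smallest p at 12 weeks, overlapped in body methylation there, at 48.6, 46.5 and 47.6% against 44.9, 47.4 and 47.3%, and at 66.6, 64.1 and 64.4% against 62.6, 65.0 and 64.7%.

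**Figure D5:**
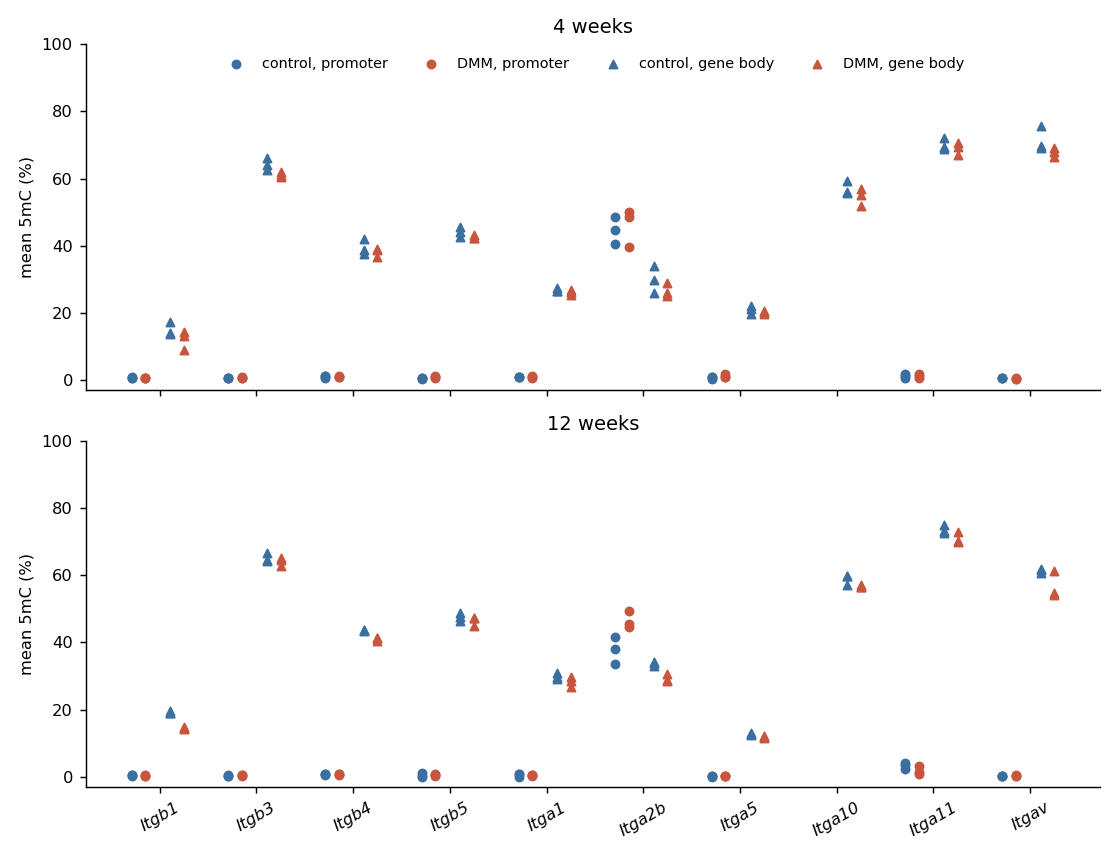
Mean 5mC in percent (vertical axes) of the promoter (circles) and the rest of the gene body (triangles) of 10 integrin subunits at 4 weeks (top) and 12 weeks (bottom), with 1 point per library, control in blue and DMM in red. Promoters lie at 0.0 to 4.16% except that of Itga2b.

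The difference between BS and oxBS libraries of the same sample estimates 5-hydroxymethylcytosine (5hmC). The same oxBS libraries gave the 5mC values above, so a lower 5mC value by itself raises this difference. Lower 5mC and a higher difference are therefore not independent observations. Over the gene and 5 kb around it, the mean was higher in DMM cartilage at 9 of 10 subunits at both times, beside 67.2% of genes at 4 weeks and 68.6% at 12 weeks. Over cytosines with at least 20 reads it was higher at 8 of 10 at both times. The limbs did not overlap at 1 of 10 at 4 weeks (Itgb1), with DMM higher, beside 6.54% of genes. At 12 weeks they did not overlap at 3 of 10 (Itga10, Itga11 and Itgb1), all with DMM higher, beside 12.4% of genes. These shares are over genes with at least 4 covered cytosines, whereas the subunits had 36 to 207. The BS file of DMM replicate 1 at 12 weeks carries another replicate number in its name than in its label, and the label was used. Without that replicate the differences of Itga10, Itga11 and Itgb1 were 1.51, 3.77 and 0.447 points, beside 0.361 points over all cytosines. Leaving out a DMM library cannot bring overlap to limbs that did not overlap, so the lack of overlap was not checked by this. Itga11 had the largest difference at 12 weeks, with 3.07, 2.63 and 3.35 points in control and 7.99, 5.61 and 7.96 points in DMM libraries (difference 4.17 points over 79 cytosines, exact permutation p = 0.1). Itga10 was at 4.94, 5.63 and 3.51 against 7.51, 6.11 and 6.31 points at 12 weeks (difference 1.95 points over 36 cytosines, and 0.687 points over the 15 with at least 20 reads). Itgb1 was at 0.06, 0.17 and 0.44 against 0.67, 0.56 and 0.78 points (difference 0.447 points, and 0.295 points with at least 20 reads), and its 4-week difference of 0.545 points became 1.09 points at that coverage. Over all cytosines the mean was 1.53 ± 0.0997 points in control and 2.04 ± 0.289 points in DMM libraries at 12 weeks (SD, n = 3), and the limbs did not overlap. At 4 weeks it was 2.16 ± 0.501 against 2.58 ± 0.265 points, with overlap.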

How the data were processed

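Cartilage RNA was read as counts per RefSeq transcript, which the authors made with FLEXBAR, STAR and featureCounts on mm10 and deposited without normalization. The RRoxBS and RRBS files hold, per cytosine covered by at least 10 reads, the deposited coverage as a count and the percent of C and of T. In oxBS libraries percent C is 5mC, and BS minus oxBS estimates 5hmC. The submitters' processing notes name CASAVA 2.17 and Bismark.

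RNA was tested within each week with edgeR 4.0.16 (TMM, filterByExpr, robust quasi-likelihood, Benjamini-Hochberg threshold 0.05), with DESeq2 1.42.0 as an alternative. The fit held all transcripts that passed this filter, 21140 of 30048 at 4 weeks and 21010 at 12 weeks. Each cytosine was tested by a logistic likelihood ratio test on pooled reads, and a call needed 25 points and q under 0.05. Region means and ratios were compared by two-sided exact permutation of 3 against 3 libraries. Scripts were tested on simulated data. Replicates are separate pools of knees. The p-values of the RNA tests and of the exact permutations reflect the spread between these pools. Those of the pooled-read test of cytosines do not count it. Both knees of a mouse were used, but the labels do not link the pools of the limbs, so no pairing entered the main tests. Members and lists were chosen with earlier results of these data known. All members were named. Of each list, called genes or else the 3 with the smallest p were named. Of the cytosines, called ones or else the 3 with the largest difference at p under 0.05 were named. Alternatives were another normalization, filter, fit, coverage minimum and each replicate left out.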

Additional observations from a re-analysis of the deposited data

How the results depend on the processing

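Of 378 refits of the subunits' log2 fold changes, 359 kept direction and side of the threshold, 4 passed it newly and 15 turned, all 15 with a replicate left out. At 4 weeks the 16 edgeR calls over all transcripts became 747 with DESeq2, 0 with at least 10 counts in every library, 0 with 1 transcript per gene, 35 with all 12 libraries in 1 fit and 0 to 118 with a replicate left out. At 12 weeks the 1 call became 861 with DESeq2, 56 without a filter and 0 to 860 with a replicate left out. For limb by week the 0 calls became 16 with DESeq2 and 0 to 3 with a replicate left out. The 8 cytosines called at 4 weeks became 0 with the overdispersion correction, 26 at 20 points, 4 at 20 reads and 5 to 3039 with a replicate left out. The 2892 at 12 weeks became 0, 8582, 1519 and 1641 to 5720, and 1433 without control replicate 2 and DMM replicate 1, which share a title style. The deviations of same-numbered libraries had r of -0.356 to 0.377 at 4 weeks and -0.575 to 0.288 at 12 weeks, with 1 of 3 numbers correlating best with its own at each time (number 1 and number 2), so the numbers were not taken to pair the samples. With the replicate number as a block edgeR called 354 and 734 transcripts and 0 for limb by week, none a subunit. For cytosines, a Mantel-Haenszel test of the reads over replicate numbers called 53 and 2695. In that test the 3 called cytosines of the subunits at 12 weeks stayed called. Their q was 0.000374 (Itga2b), 0.0109 (Itga11) and 0.0317 (Itgb4).

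With a replicate left out, log2 fold changes ran from -0.00659 to 0.65 for Itga11 and -0.32 to 0.45 for Itgb4 at 4 weeks and from -0.0396 to 0.12 for Itgb1 at 12 weeks. Values that kept their sign but moved by over 1.5 times ran from 0.0124 to 0.31 for Itga1 at 4 weeks, and at 12 weeks from -0.66 to -0.26 for Itga1, 0.31 to 0.74 for Itga11, -0.52 to -0.20 for Itga2b and 0.35 to 0.90 for Itgb4. The limb-by-week values turned to -0.126, -0.0698, -0.0594 and -0.0289 for Itga11 (up to 0.52 otherwise), to -0.0614 for Itga2b and to -0.0398, -0.0145, -0.0611 and -0.0449 for Itgav. The limb-by-week value of Itgb3 ran from -0.65 to -0.0761. With the replicate block that value was -0.18 for Itgb3 and 0.34 for Itgb4, whose 4-week value was 0.29. The 4-week log2 ratio difference of Itgb3 to Itga2b ran from -0.36 to 0.11. In mean 5mC, the 4-week difference of the Itga1 body was 0.160 points over pooled reads, that of the Itga2b promoter ran from -0.498 to 4.82 and that of the Itgb4 body from -2.30 to 0.00118. At 20 reads the 12-week differences were 0.188 for the Itga5 body and 0.154 for the Itgb5 body. In BS minus oxBS at 20 reads, they were -0.00789 (4 weeks) and -0.0515 (12 weeks) for Itga1, 0.359 for Itgb3 and -0.494 for Itgb4 at 12 weeks. With a replicate left out they ran from -0.107 to 1.36 for Itga5 and -0.333 to 0.0321 for Itgb4 at 4 weeks, and from -0.724 to 0.853 for Itga1, -0.827 to 0.497 for Itgb3 and -0.0809 to 0.516 for Itgb4 at 12 weeks. The cause was not tested. Cytosines at 10 to 33 reads in a library carry wide counting error.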

Other observations

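Levels at 4 and 12 weeks within a limb are set side by side here, and their difference was not tested. The mean level of Itgb5 in control cartilage was 282 ± 184 CPM (SD, n = 3) at 4 weeks and 37.7 ± 8.54 CPM at 12 weeks, a 7.47-fold ratio. In DMM cartilage the ratio of 4 to 12 weeks was 2.13. Itga2b was 2.44-fold higher at 12 than at 4 weeks in control cartilage and 3.11-fold higher in DMM cartilage. Summed neutrophil markers were at 9406 to 27249 CPM in the control libraries of 4 weeks and at 26500 to 44363 CPM in those of 12 weeks. Their part in these values was not tested.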
